A study of Mus musculus with 6 samples.

Results

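The 4 receptors of oestrogen and progesterone and 4 genes known as targets of oestrogen in the uterus were followed on arrays of uterus, ovary and liver. They are Esr1, Esr2, Pgr, Gper1, Greb1, Areg, Ltf and Muc1, which is 8 of the 20284 genes with a symbol on the array. The genes were chosen by name, and all 12 of their probes were followed, of 55681 probes that are not controls. Esr1 had 3 probes, Pgr and Greb1 had 2 each, and each of the other genes had 1.

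Total RNA came from immature female CD-1 mice aged 24 days, an outbred strain. The mice were given BHPF (fluorene bisphenol, a bisphenol with a fluorene core used to make plastics) at 50 mg per kg of body weight per day for 3 days by gavage, or the vehicle peanut oil alone. Each of the 6 groups (control uterus, BHPF uterus, control ovary, BHPF ovary, control liver and BHPF liver) was 1 one-colour Agilent array of 1 pool of RNA from 3 mice. The spread between animals was thus not measured, and a comparison of BHPF with control within 1 tissue has no test. Whether the 3 tissues of a treatment came from the same mice is not given in the sources used here. All 6 arrays shared 1 slide, with the control arrays placed ahead of the BHPF arrays, and so position and treatment cannot be told apart.

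Oestrogen acts mainly through the nuclear receptors ERα, encoded by Esr1, and ERβ, encoded by Esr2. Bound by hormone, they attach to DNA at oestrogen response elements or to other transcription factors and switch genes on or off. In the rodent uterus ERα predominates, and oestrogen induces growth of the epithelium and genes such as Pgr, Greb1, Areg and Ltf. In the ovary ERβ is the main receptor and is made by granulosa cells, and the liver is a further tissue with ERα.

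A level is given below as the log2 of a probe's intensity minus the 75th percentile of its array, so that a level of 0 is the brightness of that percentile. Levels of 1 probe were compared between arrays. Brightness across probes only chose the probe of a gene and the genes of a list to name, and weighted the summed levels of lists. A ratio is the BHPF level minus the control level on the log2 scale, and a difference of at least 2-fold was called when the probe stood well above background with BHPF, in the control, or in both. Where only 1 of the pair did, the ratio is a bound, set against the dimmest signal that the opposite array resolved, or the probe's own where that was higher. Noise between repeated spots of a probe gave a log2 ratio of single spots an SD of 0.138 in uterus, 0.132 in ovary and 0.137 in liver. This SD holds no spread between animals or arrays.

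Well above background were 61.4% to 74.6% of all probes per array, and no probe was saturated. Of the 12 member probes, 11 were well above background on each uterus array. In ovary it was 10 on the control and 9 on the BHPF array, and in liver 5 and 6. Markers that set the tissues apart did so as labelled. Fshr, the receptor for follicle-stimulating hormone on granulosa cells, was at 2.04 and 2.23 on the ovary arrays and not well above background in uterus or liver, and the albumin gene Alb was at 6.07 and 5.77 in liver. Not all markers did so, and among the granulosa genes Kctd14 read 4.80 and 5.14 in uterus, 4.55 and 4.72 in ovary, and 5.60 and 5.59 in liver. Hepatocyte markers were high on the uterus array whose scanner file is labelled BHPF. All 10 hepatocyte markers were at least 2-fold higher there than on the array labelled control uterus. The excess was 0.657% of the control liver signal by its median over 466 liver probes, but it varied between probes. Alb went from -0.92 to 3.36 against 6.07 in control liver, a larger share. Tat went from -4.03 to -2.23 against 4.73, a smaller one. For a gene like Alb, subtracting the median share removes only part of the excess. Subtracting that share left the count of member probes called in uterus at 0, and Esr2, the member that it moved farthest, went from 0.14 to 0.13.

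**Figure D1:**
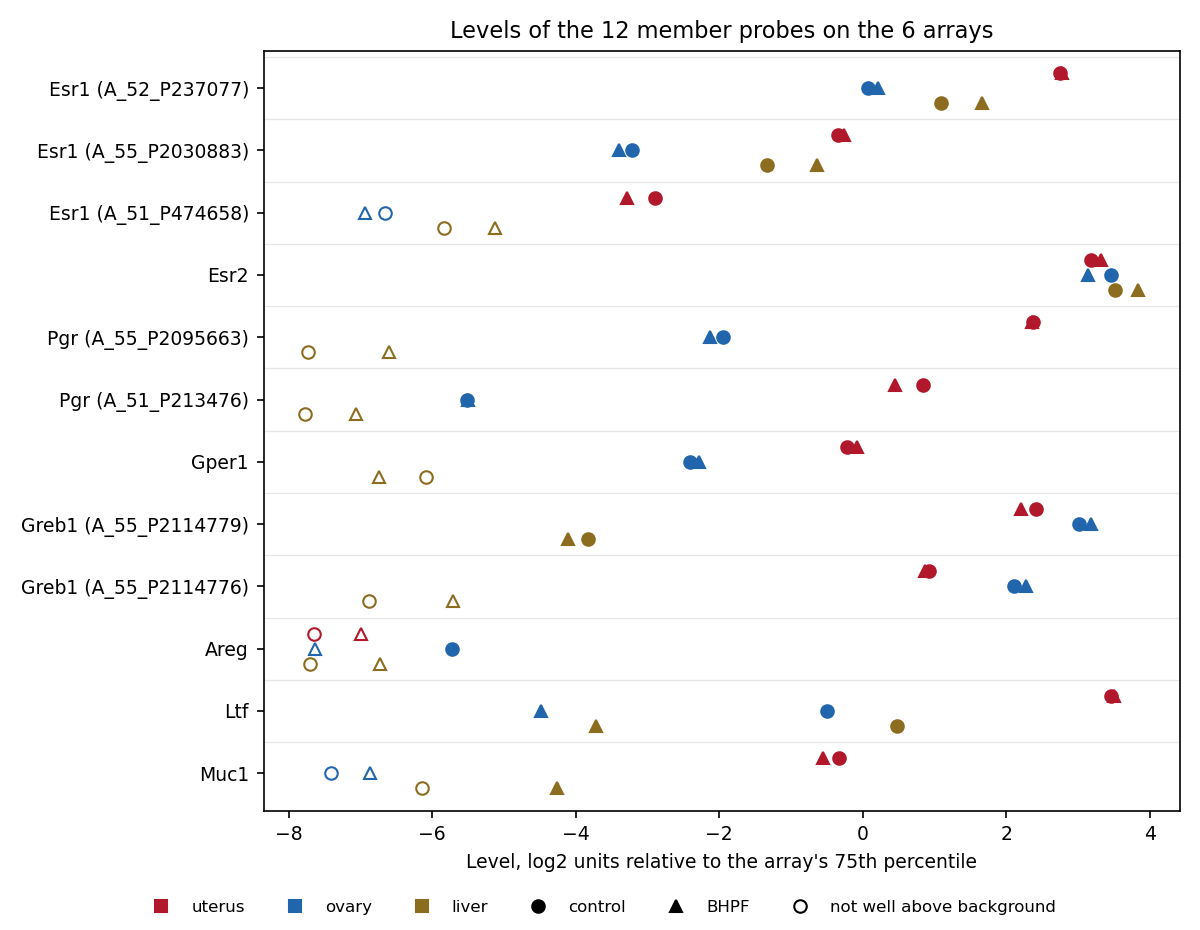
Levels of the 12 member probes on the 6 arrays, in log2 units relative to the 75th percentile of each array. Circles are control and triangles BHPF arrays, colours give the tissue, and open symbols are not well above background. Pgr, Gper1 and Muc1 lay highest in uterus, Esr2 lay between 3.13 and 3.83 on all arrays, and Ltf lay low on the BHPF arrays of ovary and liver.

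In the uterus no member differed by 2-fold between the BHPF and control arrays. All 11 probes measured there were measured on both arrays, their median ratio was -0.01 against 0.01 for all probes, and 2.65% of all 38803 probes evaluated in uterus were called. The authors' table holds the values of each uterus array under the heading of the other, and nothing in the files settles which labelling is right. The scanner labels are followed here. With the table's headings every uterus ratio of a member has the opposite sign and still none reaches 2-fold, and the uterus ratios of other genes given below would turn likewise. In the ovary 1 of 10 member probes evaluated was called, that of Ltf, which was lower, against 1.27% of 41676 probes. In the liver 2 of 6 were called, Ltf lower and Muc1 higher, against 7.09% of 36579 probes. Muc1 was evaluated in liver only because the BHPF array, where it read higher, resolved it. Its bound is part of the liver median that follows. The median of the 6 member probes evaluated in liver was 0.45 against 0.06 for all probes, and that of the 10 in ovary was 0.00, the same as for all probes.

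**Figure D2:**
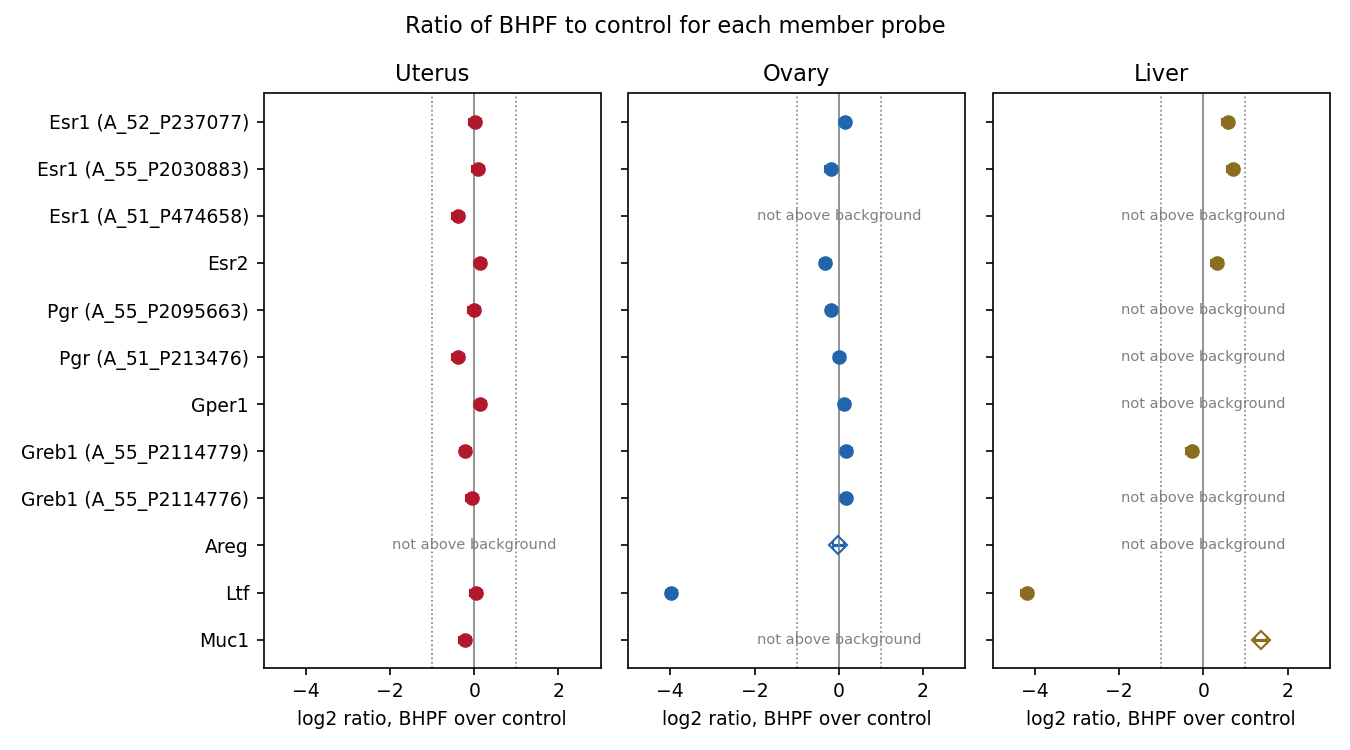
The log2 ratio of BHPF over control for each member probe in each tissue, with bars of 1 SD of the noise between single spots and dotted lines at 2-fold. Open diamonds are bounds. All 11 probes measured in uterus lay within 2-fold, and Ltf lay near -4 in ovary and in liver.

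Esr1, which encodes ERα, was brightest in uterus, lower in liver and lowest in ovary, with little difference between control and BHPF in uterus. Its probe A_52_P237077 was read from 8 to 10 spots per array. It read 2.75 on the control uterus and 2.77 on the BHPF uterus array, 0.07 and 0.21 in ovary, and 1.09 and 1.66 in liver. The groups of tissues did not overlap. The uterus ratio was 0.02 with an SE of 0.03 from the spots, and the ovary ratio was 0.14 with an SE of 0.04. In liver the ratio was 0.57 with an SE of 0.04, a 1.49-fold higher reading with BHPF. That is beyond the noise between spots, but 17.8% of all liver probes evaluated were at least as far from 0.

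The second Esr1 probe, A_55_P2030883, gave the same order. It read -0.35 and -0.26 in uterus, -1.33 and -0.63 in liver, and -3.22 and -3.40 in ovary. Its liver ratio of 0.70 was again positive, and its uterus and ovary ratios were 0.09 and -0.18. The third probe, A_51_P474658, was well above background in uterus only, at -2.90 and -3.28, a ratio of -0.38. The liver ratios depended on the scaling, since with the 50th percentile of each array subtracted they were 0.26 and 0.39. That scaling moved the median of all liver probes from 0.06 to -0.22.

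The order of the tissues was tested with limma in 1 fit over the 6 arrays, with tissue and treatment as terms, in which each tissue has 2 arrays. For A_52_P237077, Esr1 was higher in uterus than in ovary by 2.62 ± 0.19 (SE), which is 6.14-fold, with an adjusted p of 0.00286. It was higher in uterus than in liver by 1.38 ± 0.19, with an adjusted p of 0.00557, and lower in ovary than in liver by a difference of -1.24 ± 0.19, with an adjusted p of 0.00703. The probe A_55_P2030883 differed likewise between uterus and ovary, 8.0-fold, and between ovary and liver, 5.01-fold, but its difference of 0.67 ± 0.25 between uterus and liver did not pass, with an adjusted p of 0.0851. The third probe was at least 7.69-fold brighter in uterus than in ovary and at least 4.51-fold brighter than in liver. It entered the fit only through the 2 uterus arrays, where it was high, and so adds no separate support for the order. Its uterus and liver difference did not pass in 1 alternative. With the control uterus array left out, the uterus and liver difference of A_52_P237077 was 1.22 and did not pass, nor did its ovary and liver difference of -1.16 with the BHPF ovary array left out. The uterus and ovary difference of A_55_P2030883 was 2.91 and 3.08, and did not pass, with the control or the BHPF uterus array left out, and that of the third probe was 3.41 and did not pass without the control uterus array.

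Esr2, which encodes ERβ, was read by 1 probe that separated neither the tissues nor the treatments. Its levels were 3.17 and 3.31 in uterus, 3.45 and 3.13 in ovary, and 3.51 and 3.83 in liver. All 6 arrays lay within 0.70 of each other, and the ovary arrays were not above the others. The ratios with BHPF were 0.14 in uterus, -0.32 in ovary and 0.32 in liver.

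The limma differences of Esr2 were -0.05 ± 0.20 for uterus minus ovary, -0.43 ± 0.20 for uterus minus liver and -0.38 ± 0.20 for ovary minus liver, with adjusted p of 0.869, 0.143 and 0.172. The last 2 depended on the scaling. With the 50th percentile subtracted they were -0.89 and -0.70, lower than in liver, and passed, with limma adjusted p of 0.0105 and 0.0225. ERβ is known to be far more abundant in granulosa cells than in liver. The granulosa gene Fshr did separate the tissues, as given above, while Foxl2, another granulosa gene, read 4.32 and 4.60 in uterus, 4.31 and 4.35 in ovary, and 5.12 and 5.19 in liver. What the Esr2 and Foxl2 probes bind besides their own transcripts was not tested.

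Gper1 encodes a membrane receptor coupled to G proteins that responds to oestrogen. It read -0.22 and -0.09 in uterus and -2.41 and -2.28 in ovary, and it was not well above background on either liver array. The ratios with BHPF were 0.14 in uterus and 0.13 in ovary, each about 1 SD of the noise between spots. It was 4.58-fold higher in uterus than in ovary, a log2 difference of 2.19 ± 0.25 with a limma adjusted p of 0.00831. It was at least 34.6-fold higher in uterus and at least 7.55-fold higher in ovary than in liver, with adjusted p of 0.000417 and 0.0008. The uterus and ovary difference did not pass with the control ovary array, the control uterus array or the BHPF uterus array left out, at 2.0, 2.39 and 2.0.

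Pgr encodes the progesterone receptor, which oestrogen induces in uterine stroma and muscle. Both probes were highest in uterus and neither was well above background in liver. A_55_P2095663 read 2.36 and 2.35 in uterus and -1.95 and -2.13 in ovary. A_51_P213476 read 0.83 and 0.44 in uterus and -5.52 and -5.50 in ovary. With BHPF the uterus ratios were -0.01 and -0.39, which differ by more than the noise between spots. The lower of them is shared or exceeded in size by 15.5% of the uterus probes evaluated, and in ovary the ratios were -0.18 and 0.01.

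Pgr was 21.1-fold higher in uterus than in ovary by A_55_P2095663 (4.40 ± 0.37) and 70.9-fold by A_51_P213476 (6.15 ± 0.30), with limma adjusted p of 0.00399 and 0.00136. In uterus the probes were at least 197-fold and at least 59.9-fold brighter than in liver, with adjusted p of 0.000401 and 0.000397. In ovary the first was at least 9.33-fold brighter than in liver, with an adjusted p of 0.00108. For the second no fold is given, as its ovary level of -5.51 lay below the level that the liver arrays could resolve. Without the control or the BHPF uterus array the uterus and ovary difference of the first probe was 4.16 and 4.65, and did not pass.

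Promoter sequences of the targets are shown because the response of such genes to oestrogen is defined by DNA motifs. The RefSeq promoter table of GRCm38.p6 held 10 promoters for the 8 genes, each of 300 bases, with 250 before the transcription start and 50 after it. The full oestrogen response element was searched as GGTCANNNTGACC and its half-site as GGTCA, on both strands, and every full element contains half-sites. The full element was in none of the 10 promoters and in 0.07% of all 32851 promoters. A half-site was in a promoter of Esr1, Esr2, Greb1, Areg and Ltf, but also in 40.5% of all promoters. Half-sites are in capitals in the sequences below, where TGACC is the half-site read on the other strand, and Pgr had none.
Ltf, chr9:111019042-111019341, plus strand: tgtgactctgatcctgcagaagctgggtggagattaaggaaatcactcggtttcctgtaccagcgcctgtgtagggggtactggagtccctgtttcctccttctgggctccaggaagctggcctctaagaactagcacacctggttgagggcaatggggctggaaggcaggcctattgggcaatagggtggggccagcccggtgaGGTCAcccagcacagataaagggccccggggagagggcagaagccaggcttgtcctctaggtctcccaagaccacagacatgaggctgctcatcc
Pgr, chr9:8899583-8899882, plus strand: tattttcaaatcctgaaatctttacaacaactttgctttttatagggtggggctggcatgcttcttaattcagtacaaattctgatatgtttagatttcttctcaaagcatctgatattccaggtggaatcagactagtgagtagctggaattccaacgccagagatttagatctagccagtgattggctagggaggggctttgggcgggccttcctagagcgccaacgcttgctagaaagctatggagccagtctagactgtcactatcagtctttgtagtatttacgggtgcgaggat
Greb1, first promoter, chr12:16800837-16801136, minus strand: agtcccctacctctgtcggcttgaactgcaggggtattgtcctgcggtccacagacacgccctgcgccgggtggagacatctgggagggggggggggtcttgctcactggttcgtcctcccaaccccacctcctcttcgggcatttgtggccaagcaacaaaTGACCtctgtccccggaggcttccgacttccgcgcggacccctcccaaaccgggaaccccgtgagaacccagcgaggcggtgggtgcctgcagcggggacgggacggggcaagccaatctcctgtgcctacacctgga
Greb1, second promoter, chr12:16757190-16757489, minus strand: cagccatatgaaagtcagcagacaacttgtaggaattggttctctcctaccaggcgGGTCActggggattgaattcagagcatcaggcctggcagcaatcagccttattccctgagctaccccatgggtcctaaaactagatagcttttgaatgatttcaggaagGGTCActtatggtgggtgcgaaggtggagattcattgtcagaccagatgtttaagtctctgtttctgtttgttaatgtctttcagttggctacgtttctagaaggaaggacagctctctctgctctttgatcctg
The half-site of Ltf starts 45 bases upstream of the start, and those of Greb1 88 bases upstream in the first promoter and 194 and 85 bases upstream in the second. Oestrogen response elements known for such genes may lie farther away, and the lack of a match in these windows says nothing of binding.

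Greb1, an early oestrogen-induced gene whose product binds ERα as a cofactor, was high in uterus and ovary and low in liver. A_55_P2114779 read 2.41 and 2.20 in uterus, 3.01 and 3.18 in ovary, and -3.83 and -4.11 in liver. A_55_P2114776 read 0.92 and 0.86 in uterus and 2.11 and 2.28 in ovary, and was not well above background in liver. Unlike Esr1, Pgr and Gper1, Greb1 was above its uterus level on both ovary arrays by both probes. With BHPF the ratios were -0.21 and -0.06 in uterus, 0.18 and 0.17 in ovary, and -0.28 in liver, where 40.9% of probes were at least as far from 0.

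By A_55_P2114779 Greb1 was 77.3-fold higher in uterus than in liver and 134-fold higher in ovary than in liver, with limma adjusted p of 0.000361 and 0.000331. By A_55_P2114776 it was at least 71.2-fold and at least 176-fold higher, with adjusted p of 0.000512 and 0.000401. The difference of uterus minus ovary was -0.79 ± 0.17 by the first probe, with an adjusted p of 0.0387, and -1.30 ± 0.34 by the second, with 0.0604, which did not pass. The second did pass with normexp, the 50th percentile, quantile normalization and the authors' table, with limma adjusted p of 0.00366, 0.0154, 0.0106 and 0.0179, and without either liver array, with 0.00842. The first did not pass either with any 1 of the uterus or ovary arrays left out, at -1.0 to -0.58.

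Areg encodes amphiregulin, a ligand of the EGF receptor that oestrogen and progesterone induce in the uterus. Its probe was well above background on the control ovary array alone, at -5.73. The bound on the ovary ratio was -0.01, so no change can be read there, and no ratio can be given in uterus or liver. Its own reading on the BHPF ovary array, -7.63, lay below what that array could resolve.

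Muc1 encodes a mucin of the apical surface of epithelium. It read -0.34 and -0.56 in uterus, a ratio of -0.22, and in ovary neither array showed it well above background. In liver it was not well above background on the control array and read -4.26 on the BHPF array, which makes it at least 2.57-fold higher with BHPF, a bound of 1.36 in log2. With quantile normalization the bound was 0.92, which is under 2-fold. Member readings that neither liver array resolved were mostly higher on the BHPF array too. The differences were 1.13 and 0.71 for Pgr, 1.18 for Greb1, 0.98 for Areg and 0.71 for the third Esr1 probe. Gper1 went the other way at -0.65. Muc1 was higher in uterus than in liver, where 1 of the 2 arrays was well above background, by a log2 difference of 4.75 ± 0.54 with a limma adjusted p of 0.0034. It was at least 48.0-fold higher in uterus than in ovary, with an adjusted p of 0.00357. Muc1 was lower in ovary than in liver by a log2 difference of -1.93 ± 0.54, with a limma adjusted p of 0.0361. No fold is given, as the control liver reading was not well above background. That call rests on the BHPF liver array, the only one of the 4 arrays on which the probe was well above background. It was not made without the control ovary, BHPF ovary or BHPF liver array, at -2.08, -1.79 and -1.07, nor at -1.55 with the 75th percentile taken over probes that every array resolved.

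Ltf encodes lactoferrin, an iron-binding protein that uterine epithelium secretes under oestrogen and that neutrophils store in their specific granules. It was the member that differed most between BHPF and control arrays, and it did so outside the uterus. In uterus it read 3.46 on the control and 3.50 on the BHPF array, a ratio of 0.04. In ovary it read -0.50 on the control and -4.48 on the BHPF array, which is 15.8-fold lower, and the intensities were 5288 and 285. In liver it read 0.47 and -3.71, which is 18.1-fold lower, and the intensities were 4766 and 251. On all 6 arrays the probe was well above background. Only 0.0144% of the ovary probes and 0.082% of the liver probes evaluated were as far from 0. Background correction by normexp gave -3.49 in ovary and -3.47 in liver.

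As Ltf had 1 array per group, no test of these differences is possible. Its effect common to the 3 tissues in limma was -2.71 ± 0.96, with an adjusted p of 0.75. Ltf was the 1 member probe of 11 with an unadjusted p under 0.05 for that effect, and none passed after adjustment. Over all 41513 probes 2349 had such a p and 0% passed. Ltf was 34.3-fold higher in uterus than in liver (5.10 ± 1.17, adjusted p of 0.0235) and 62.8-fold higher than in ovary (5.97 ± 1.17, adjusted p of 0.0301), where the SE holds the unequal differences with BHPF. The uterus and liver difference did not pass without the BHPF liver array, at 3.99. The uterus and ovary difference did not pass without the control or the BHPF ovary array, at 6.93 and 5.02, and neither passed in a fit with no term for treatment.

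Markers of neutrophils were lower with BHPF on the same arrays as Ltf. In liver 11 of the 16 markers evaluated were at least 2-fold lower and none higher, with a median of -2.32. In ovary 6 of 14 were lower and none higher, with a median of -0.76. In uterus 6 of 15 were lower and 1 higher, with a median of -0.47. Of all genes, 1.68% were that much lower in liver, 0.653% in ovary and 0.818% in uterus, and the median of all genes was 0.00 in liver, 0.01 in ovary and 0.00 in uterus.

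Among these markers, S100a8 and S100a9, which encode the subunits of calprotectin, had ratios of -2.73 and -2.27 in liver, -3.13 and -2.55 in ovary, and -1.52 and -1.0 in uterus. Camp and Ngp, which like Ltf encode proteins of specific granules, had ratios of -2.68 and -3.38 in liver. In ovary Camp had -1.13 and Ngp a bound of -0.85, and in uterus Camp had -1.06 and Ngp a bound of -1.59. The collagenase gene Mmp8 had -3.48 in liver, -1.32 in ovary and -1.71 in uterus. The marker that was higher in uterus was Ctsg, which encodes a protease that mast cells also store, at 3.32.

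The brightest markers of the list, Itgam and Csf3r, moved by 0.31 and 0.03 in uterus, 0.11 and -0.01 in ovary, and 0.18 and -0.15 in liver. The log2 of the summed linear levels of the list was 6.61 and 6.07 in liver, 5.14 and 5.01 in ovary, and 5.52 and 5.52 in uterus. Itgam and Csf3r make up most of each sum, so it says little of the dimmer markers. Elane and Fcnb, which mark immature neutrophils, were not well above background on the uterus and ovary arrays. Other granule genes of the list were. Prtn3 read -3.72 and -4.12 in uterus, -4.34 and -4.65 in ovary, and 1.66 and 0.35 in liver. Mpo read -0.53 and -1.06 in uterus. The part of neutrophils in the Ltf ratios was not tested. Fewer cells of a type and less RNA per cell cannot be told apart in pooled tissue RNA.

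**Figure D3:**
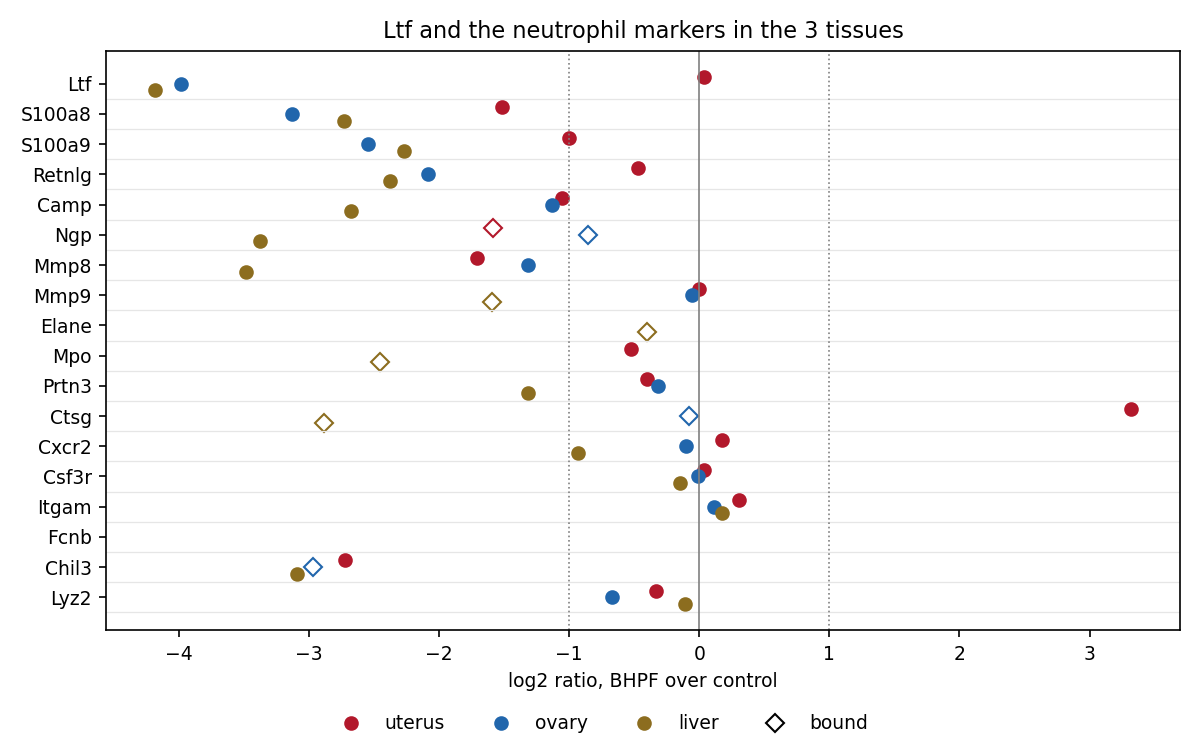
Log2 ratios of BHPF over control for Ltf and the 17 neutrophil markers in uterus, ovary and liver, with dotted lines at 2-fold and open diamonds for bounds. Ltf lay with the lowest markers in liver and ovary, and at 0.04 in uterus, where S100a8, Mmp8 and Chil3 lay at -1.52, -1.71 and -2.72.

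Markers of the epithelium, stroma and muscle of the uterus and of granulosa cells showed no 2-fold difference. None of the 12 epithelial markers differed by 2-fold in any tissue, and their summed level was 5.75 and 5.74 in uterus, with Krt18 at 3.67 and 3.80 and Krt8 at 3.23 and 3.11. None of the 9 stromal and 8 smooth muscle markers differed by 2-fold in uterus, where Col1a1 read 4.34 and 4.18 and Acta2 read 4.75 and 4.77. None of the 8 granulosa markers did so in ovary, where Inha read 4.35 and 4.40. In uterus 3 of 4 adipocyte markers evaluated were lower, with a median of -2.08, and in ovary 3 of 5 were higher, with a median of 1.35. Markers of oviduct were below 0 in ovary in 6 of 6, with a median of -0.72 and 1 of them at least 2-fold lower. The part of these cells in the member ratios was not tested.

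Between tissues most members differed. Of the 11 member probes tested with limma (Areg was not, being well above background on 1 array), 9 differed between uterus and liver, against 57.0% of all probes. Between uterus and ovary 9 differed, against 26.9%. Both counts hold the third Esr1 probe, which entered the fit only through the uterus arrays, where it was high. Between ovary and liver 9 passed, against 63.3%, but 2 of these are no measured difference in level. The third Esr1 probe was well above background in neither tissue (-1.31 ± 0.32, adjusted p of 0.0255), and no fold is given for it. The second Pgr probe (1.90 ± 0.30, adjusted p of 0.00765) had an ovary level below what the liver arrays resolved, and was 0.52 with normexp and 1.83 without the control ovary array, and passed in neither. Of the 9 that differed between uterus and ovary, all but 1 Greb1 probe were higher in uterus. All 9 that differed between uterus and liver were higher in uterus. Each fit used 2 arrays per tissue, and any difference with BHPF that is particular to 1 tissue is part of its error.

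**Figure D4:**
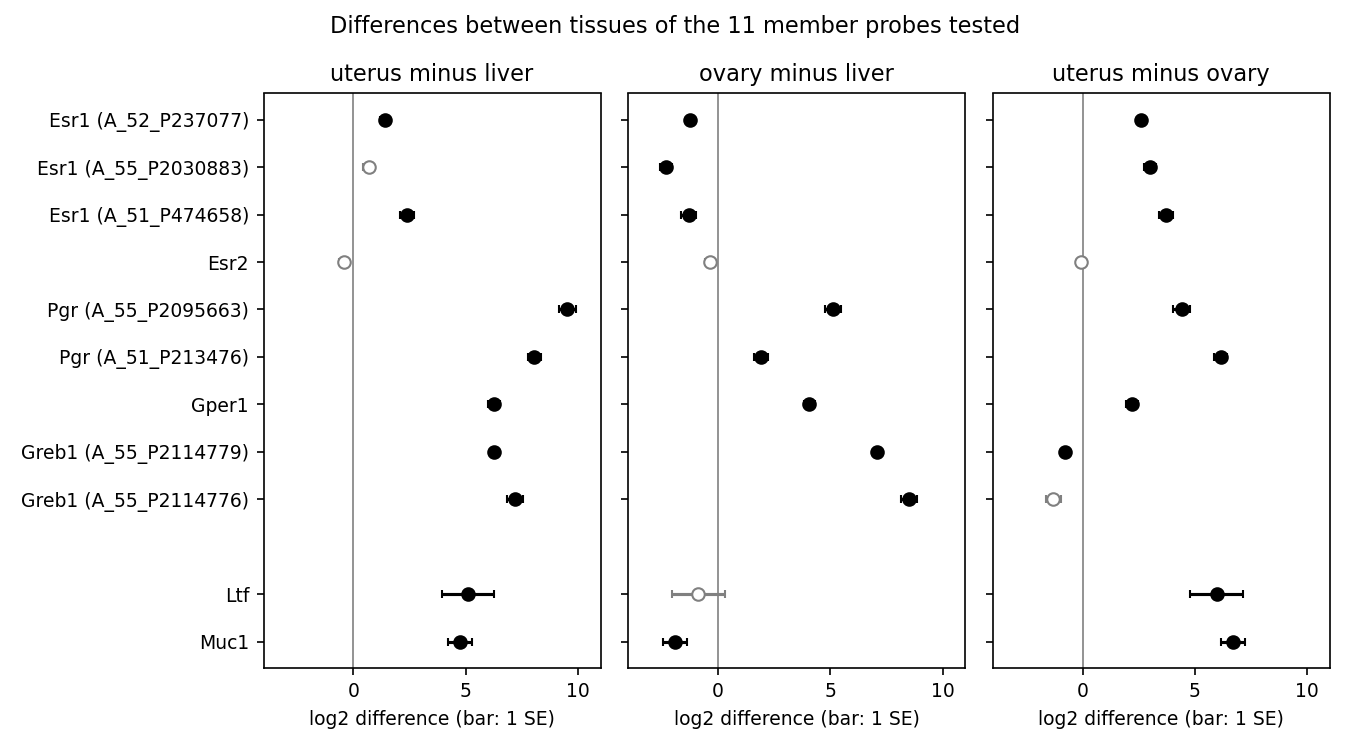
Log2 differences between tissues from limma for the 11 member probes tested, with bars of 1 SE. Filled points have an adjusted p under 0.05. Pgr, Gper1, Ltf and Muc1 were higher in uterus than in both other tissues, Greb1 was higher in uterus and in ovary than in liver, and Esr2 lay near 0.

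Genes of the pathway around the members also moved little in uterus. Of 30 listed genes that oestrogen is known to induce in the uterus, none differed by 2-fold with BHPF in uterus. The list is a choice and holds no small proline-rich Sprr gene. The study reports Sprr genes as lower in uterus with BHPF, on these arrays and, after a longer exposure, by quantitative PCR. It also reports that most oestrogen-responsive genes of its own comparison moved opposite to their response to oestrogen. Of all genes, 2.21% were at least 2-fold higher there and 0.818% lower. The median of the 30 was -0.09 against 0.00 for all genes. Of the 30, 18 were below 0, and the share of all genes below 0 was not counted. The brightest of them, the complement gene C3 and the creatine kinase gene Ckb, had ratios of -0.20 and -0.19. The lowest was Cdkn1a, which encodes a cell cycle inhibitor, at -0.73, and the highest the cyclin gene Ccnb1 at 0.38. In ovary 1 of 30 was lower, Padi1 at -1.09, and in liver 1 of 29 evaluated was higher, Fos at 1.30, where 0.653% of genes were lower in ovary and 3.08% higher in liver. The growth factor gene Igf1 had -0.17 in uterus. Igf1 and, in the lists below, Cyp26a1, Muc4, Cyp19a1 and Trf are labelled in a plot that the study made of these arrays, and are no independent evidence of a direction.

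Few of the receptors' partners were called. Of the 6 oestrogen-related and other steroid receptors, none was called in uterus or ovary, and the glucocorticoid receptor gene Nr3c1 and Esrra had 0.11 and -0.10 in uterus. Of the 21 coregulators and chaperones, Gata3 alone was called, at 1.31 in liver, where all 21 were evaluated and 3.08% of all genes were that much higher. Crebbp and Hsp90ab1, the brightest in uterus, had 0.18 and 0.07 there.

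Of 15 targets and partners of the progesterone receptor, 14 were evaluated in uterus, 12 in ovary and 13 in liver. Cyp26a1, which encodes an enzyme that breaks down retinoic acid, was the 1 called, in uterus and in liver. Of all genes, 2.21% were at least 2-fold higher in uterus and 3.08% in liver. The next values are those of Cyp26a1. It had a ratio of 1.58 in uterus, from -4.62 to -3.04, and 2.01 in liver, from -1.45 to 0.56. With the share of liver RNA on the BHPF uterus array subtracted, its uterus ratio was 1.55. That share was taken of the control liver level, which for Cyp26a1 was lower than the BHPF liver level. Whether liver RNA gave its uterus ratio was thus not tested. Sox17 and Fkbp4, the brightest of this list in uterus, had 0.05 and -0.07.

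A list of 14 genes held ligands of the EGF family, to which Areg belongs, their receptors and the protease gene Adam17. Of the 12 evaluated in ovary, Nrg2 was higher at 1.69, against 0.433% of all genes. None of the 10 evaluated in uterus or the 13 in liver was called. Adam17, which encodes the protease that sheds Areg, and Hbegf had -0.02 and 0.20 in uterus. Of the 5 further mucins on the array none was called, with Muc4 and Muc13 at -0.66 and -0.31 in uterus. Of the 11 genes of oestrogen synthesis and breakdown on the array, 10 were evaluated in uterus, 9 in ovary and 10 in liver, and none was called. With the median share of liver RNA subtracted, the uterus ratio of Hsd3b1 went from -0.77 to -1.44, past 2-fold. That took its BHPF reading down to the dimmest signal that array resolved. The uterus ratio of Hsd17b2 went from 0.72 to 0.12. The part of liver RNA in these ratios was not tested. The aromatase gene Cyp19a1 read 1.59 and 1.32 in ovary. The lactoferrin relatives did not share the ratios of Ltf. The transferrin gene Trf, which hepatocytes make in large amounts, had 0.96 in uterus, 0.03 in ovary and 0.03 in liver. With the median share of liver RNA subtracted its uterus ratio was 0.91. That share is too small for some hepatocyte genes, and the part of liver RNA in the Trf ratio was not tested. Meltf had -0.04 in uterus and 0.45 in ovary.

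**Figure D5:**
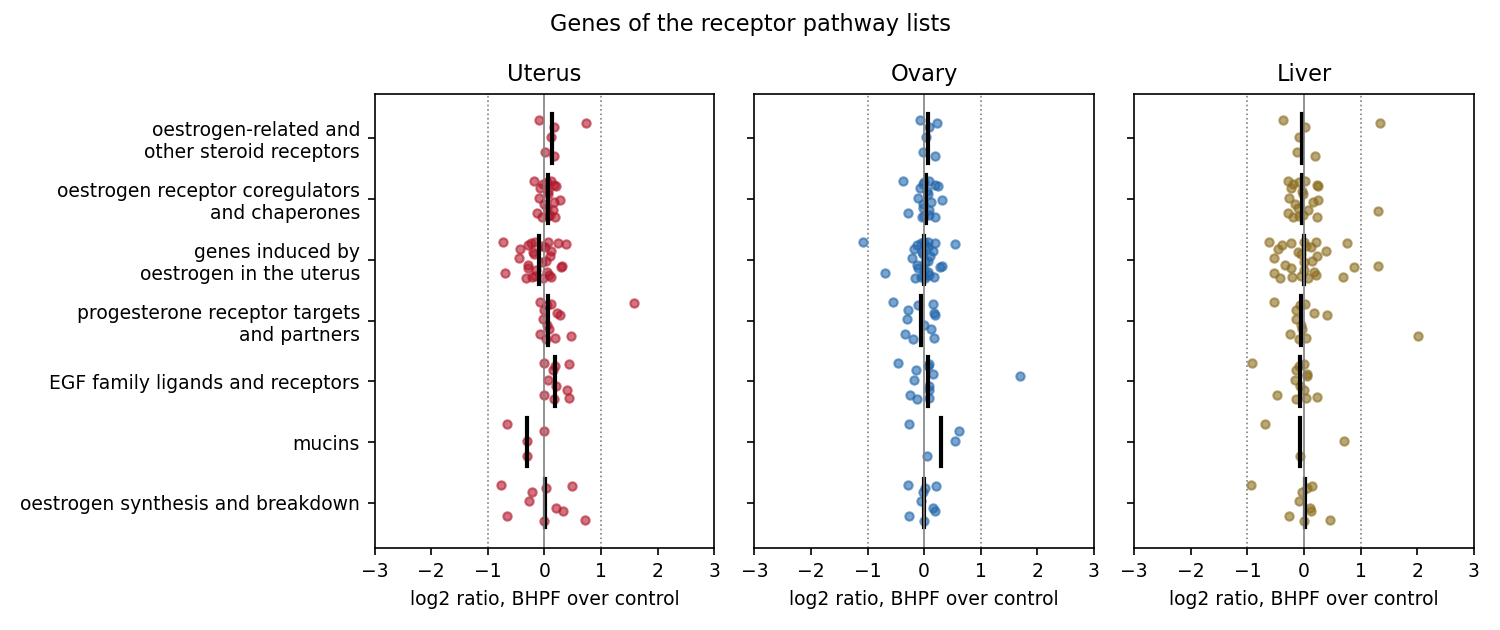
Log2 ratios of BHPF over control for the genes of 7 pathway lists in uterus, ovary and liver, with 1 point per gene and black bars at the list medians. Dotted lines mark 2-fold, and the list medians lay between -0.31 and 0.30.

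The genes most like each member over the 6 arrays were found by the root mean square (RMS) of the difference between their levels, each centred on its mean. Readings not well above background were first raised to the dimmest signal that the array resolved, where they lay below it. The liver readings of Pgr and Gper1 and the ovary and control liver readings of Muc1 were raised so. Part of their likeness to genes that are dim on the same arrays comes from this. Most like Esr1 were Adamtsl4, 2010016I18Rik and Nog, with an RMS of 0.116, 0.13 and 0.139 log2 units where Esr1 itself spanned 2.70. Most like Pgr were Sfrp2 (0.2), Gcnt3 (0.259) and Rprm (0.418), where Pgr spanned 7.99 with its liver readings raised. The Wnt inhibitor gene Sfrp2 read 2.19 and 2.29 in uterus and -2.33 and -2.66 in ovary.

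Gper1 was most like Bves, Klhl32 and Larp6 (0.0585, 0.0848 and 0.103). Greb1 was most like Gprasp2, Bcat1 and Tenm4 (0.307, 0.38 and 0.553), and Muc1 was most like Tshr, Wap and Them5 (0.29, 0.317 and 0.337). Esr2 was most like Terf1, Hikeshi and Ttc1 (0.0742, 0.0759 and 0.08), over a span of 0.70 only. Areg was most like Olfr1306, Mroh7 and 1700015G11Rik, but with 1 array above background this likeness tells little. No gene came close to Ltf. The nearest of 13660 candidates, Il20rb, Tmem40 and Napsa, had an RMS of 1.48, 1.49 and 1.51 over its span of 7.98. These are likenesses over 6 arrays of 3 tissues, a description with no test.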

How the data were processed

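Agilent one-colour arrays of pooled RNA from 3 tissues were used, 6 arrays in all, 1 per group. The authors extracted the scans (Agilent Feature Extraction, version 9.1 per the submitters' processing notes and 11.5.1.1 per the file headers) and deposited an intensity per spot, background-subtracted and not normalized between arrays, with a call for spots well above background. A table of log2 values from GeneSpring, deposited beside them, had been made by a percentile shift. Its uterus columns held each other's scanner values (within 0.001 for all probes), with nothing to settle which labelling is right, and the table served as an alternative with those columns exchanged.

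Controls and spots with an outlier call were dropped, a probe's log2 intensities were averaged over its spots, and each array was set relative to its 75th percentile. The transcript given for a probe was matched to RefSeq symbols of GRCm38.p6 (26762 of 55681 probes). Lists used the brightest probe of a gene. For BHPF against control within a tissue no test was possible, and a 2-fold difference was called. Tissues were compared with limma 3.58.1 in R 4.3.3 (tissue and treatment as terms, empirical Bayes, 41513 probes well above background on at least 2 arrays, Benjamini-Hochberg adjusted p under 0.05), after the script was tested on simulated data. Each tissue difference rests on 2 arrays per tissue, which limits the precision.

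The members and lists were chosen with earlier results of these data known. Every member probe was named. Also named were the 3 genes most like each member, genes of a list at least 2-fold different, the 2 brightest genes of a list, and further genes chosen after their values were seen (Fshr, Foxl2, Cdkn1a, Ccnb1, Igf1, Cyp19a1 and the neutrophil markers). A few list genes meeting this rule are left unreported here. The alternatives were normexp with an offset of 50 (on median signals, since no mean signal was given), other scalings, filters and thresholds, and each array left out of limma. Where probes lie in their transcripts was not analysed here. Insl3, Muc16, Muc6, Mucl1 and Sts, from the lists, were not matched.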

Additional observations from a re-analysis of the deposited data

Results flagged for a closer look

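The ratio of Ltf was negative in ovary and liver, and not below 0 in uterus. Its ratio of BHPF over control was -3.98 in ovary and -4.18 in liver, and 0.04 in uterus. The difference between tissues was not tested, as each tissue had 1 array per treatment, and the uterus value lay within the noise between spots and shows no change.

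Muc1 was higher with BHPF in liver, with a bound of 1.36, and had a ratio of -0.22 in uterus. It entered the liver comparison only through the BHPF array, as the control array did not resolve it. This difference was not tested either.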

How the results depend on the processing

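The count of member probes called with BHPF in uterus was 0 under every alternative that was run. In ovary it went from 1 to 2 with the authors' table, with no filter on dim probes and with own values in place of bounds, the added probe being that of Areg at -1.90 to -1.91. In liver it went from 2 to 1 with quantile normalization (without Muc1) and with a 4-fold threshold, and to 4 with no filter, where probes that no array resolved were counted. Ltf was at least 4-fold lower in ovary and liver under every alternative. With the table's uterus columns as headed, an alternative added after seeing the data, every uterus ratio changed sign and the count was 0.

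The counts of 9 member probes that differed between tissues fell to 4, 3 and 4 (uterus and liver, ovary and liver, uterus and ovary) among probes well above background on all 6 arrays, of which there were 5, and with the authors' table to 4 for uterus and liver, of 6 tested, and 3 for ovary and liver, of 5 tested. With 1 array left out they were 7 to 9, 6 to 9 and 4 to 10, lowest without the control uterus array for the first and last and without either ovary array for the second, and 5 without the BHPF uterus array for the last. The count for uterus and ovary was 10 with normexp, the 50th percentile and quantile normalization, and that for ovary and liver was 7 with the percentile over probes that every array resolved, without Muc1 and the third Esr1 probe. With the 50th percentile the counts for uterus and liver and for ovary and liver were 10, as Esr2 passed in both. The effect common to the tissues called 0 members throughout. Differences that reversed had not passed in the fit given in the Results. For Esr2, uterus minus liver became 0.36 and ovary minus liver 0.59 with quantile normalization, ovary minus liver became 0.00075 with the percentile taken over probes that every array resolved, and uterus minus ovary became 0.23 and 0.02 without the control ovary or the control uterus array, and lay between -0.33 and 0.23 with any array left out. For Ltf, ovary minus liver, -0.87 in the fit with all arrays, became 0.23 and 0.08 without the control liver or the BHPF ovary array, and lay between -1.98 and 0.23 with any array left out. The cause was not tested. No paired analysis was possible because each group had 1 array and no replicate number to share, apart from the fit above, whose tissue term compares BHPF with control within each tissue.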
